A study of Mus musculus with 4 samples.

Results

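Matrix metalloproteinases (MMPs) and their tissue inhibitors (TIMPs) were examined as 9 genes chosen by name: the proteases Mmp2, Mmp3, Mmp8, Mmp9, Mmp13 and Mmp14 and the inhibitors Timp1, Timp2 and Timp3. All 9 symbols were found among the 32285 genes of the deposited table, and all 9 passed the filter on low counts in fibroblasts and in epithelium. The samples were mouse alveolospheres, organoids in which LysoTracker-positive alveolar type 2 (AT2) cells, the surfactant-making progenitors of the alveolus, were grown with PDGFRα-positive lung fibroblasts. In the knockdown (KD) group, 2 libraries, the fibroblasts carried a knockdown of YAP (gene Yap1) and TAZ (gene Wwtr1), transcriptional co-activators of the Hippo pathway. The control group, 2 libraries, was labelled wild type. Doxycycline, the inducer, was given to both groups at 3 µg/ml from day 7, and cultures were collected on day 14, so both groups carry any effect of the drug itself. The age and sex of the animals, and whether the replicates came from separate animals or cultures, are not in the labels, and every p-value here rests on library-to-library spread, part of which can be technical.

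MMPs are zinc-dependent proteases that cleave collagens, other matrix proteins and signalling molecules, and most are secreted as inactive proforms. Gelatinases (Mmp2, Mmp9) act on denatured collagen and basement membrane collagen, collagenases (Mmp8, Mmp13) on fibrillar collagen, stromelysins (Mmp3) on proteoglycans and other matrix proteins, and Mmp14 is anchored in the cell membrane, where with Timp2 it activates the Mmp2 proform. TIMPs bind and block the active sites. In the lung, MMPs and TIMPs are known for their part in alveolar repair, emphysema and fibrosis.

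Counts of RNA molecules (unique molecular identifiers, UMIs) were summed per library over the cells of each class in the authors' annotation. The libraries held 10545 and 6508 cells in KD against 15000 and 13883 in control, with 63758826 and 44284602 UMIs against 71523447 and 70525226 UMIs. The fibroblast compartment is the sum of 11 classes (7472 and 5123 cells in KD against 12041 and 11480 in control), and the epithelial compartment is the sum of 5 groups (2589 and 1274 against 2233 and 1749). These 5 are clusters 9, 14 and 32 of the authors' AT2 class, Cycling AT2 and Transitional epithelial cells. The summed fibroblast markers, 10 genes such as Col1a1 and Pdgfra, read 7643 and 7040 counts scaled to 1e6 per library (CPM) in KD and 7734 and 10017 CPM in control fibroblasts, and 685 and 447 CPM against 1007 and 864 CPM in epithelium. The summed AT2 markers, 10 genes such as Sftpc, read 52522 and 36636 CPM in KD and 25176 and 40833 CPM in control epithelium, and 2539 and 1273 CPM against 837 and 923 CPM in fibroblasts. Of the barcodes, 1073 (2.39%) occurred in more than 1 library. Yap1, the targeted gene, read 40.9 and 36.4 CPM in KD fibroblasts against 61.3 and 64.9 CPM in control fibroblasts, without overlap (log2 change −0.71 ± 0.11 SE, edgeR adjusted p = 0.0086), but adjusted p = 0.056 without KD replicate 2. Wwtr1 read 194 and 172 CPM in KD against 239 and 231 CPM in control fibroblasts and did not pass (−0.36 ± 0.13, adjusted p = 0.11). In epithelium neither passed (adjusted p = 0.70 for Yap1 and 0.49 for Wwtr1).

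In KD fibroblasts, transcripts of 1 protease, the gelatinase Mmp9, rose, and those of both collagenases, Mmp8 and Mmp13, fell. The other 3 proteases and the 3 TIMPs did not pass the test when all fibroblasts were summed (0 TIMPs at an unadjusted p under 0.05, and 0 by DESeq2 or voom). Thus 3 of 9 members were called at an adjusted p under 0.05 by edgeR's quasi-likelihood test, beside 10.6% of the 17481 genes tested. Of the proteases, 1 of 6 was called higher and 2 lower, beside 4.42% of genes higher and 6.22% lower. The median log2 change was 0.10 over the 6 proteases and −0.25 over the 3 TIMPs, beside 0.01 over all genes. In these sums, more or fewer cells of a class and more or less RNA per cell cannot be told apart, which is why the classes are given one by one further on.

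**Figure D1:**
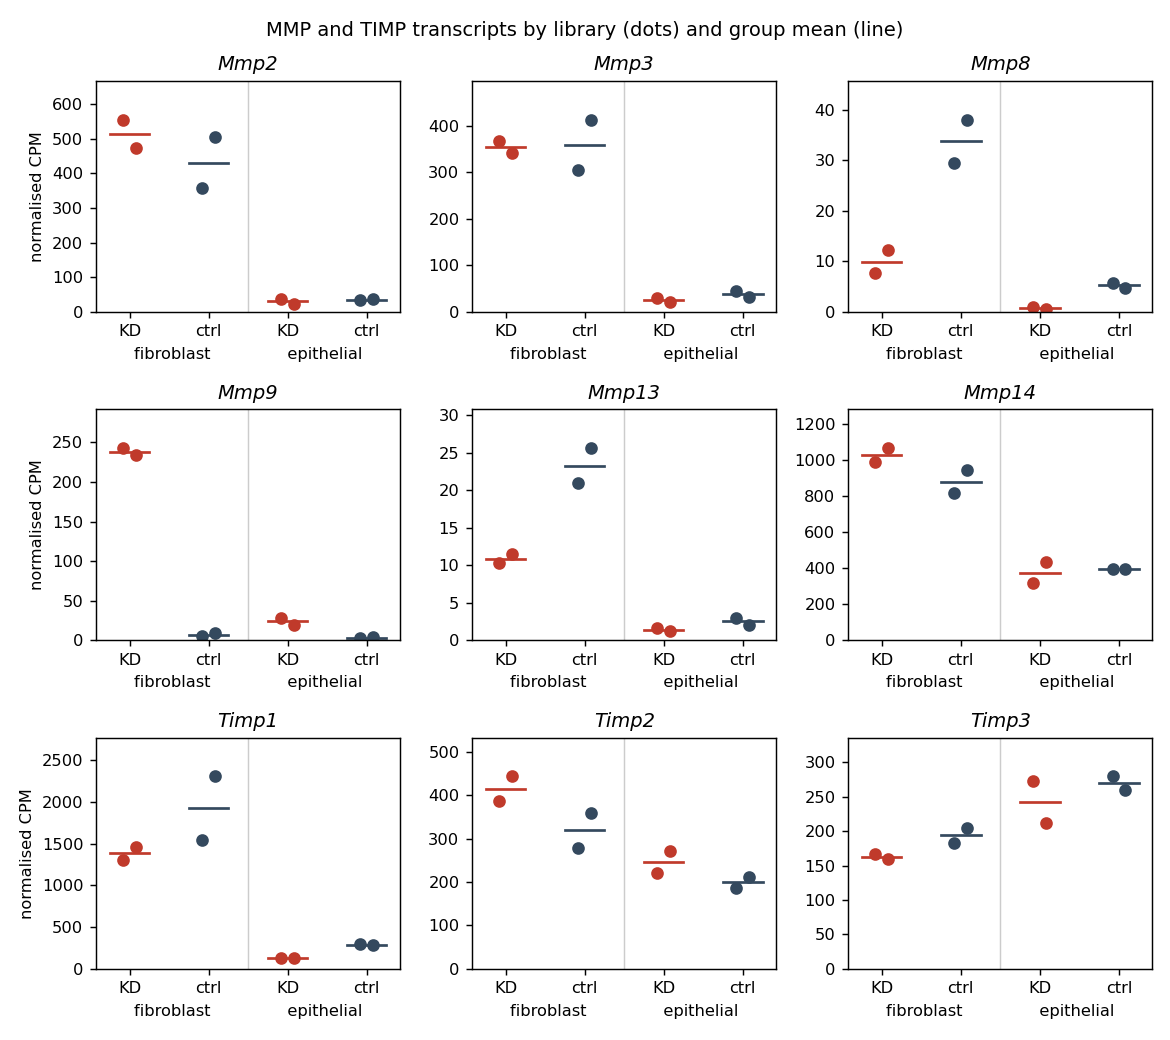
Normalised CPM of the 9 genes in the summed fibroblast and epithelial cells; each dot is 1 library, each line the mean of the 2 libraries of a group, and each panel has its own axis from 0. Mmp9 stands far apart between the groups (243 and 234 CPM in KD against 6.02 and 8.64 CPM in control fibroblasts), Mmp8 and Mmp13 lie lower in KD, and Timp3 is the gene that reads higher in epithelium than in fibroblasts in all 4 libraries.

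Mmp9 (chr2:164940780-164955850, plus strand, GRCm38), the gelatinase B gene, read 243 and 234 CPM in KD fibroblasts against 6.02 and 8.64 CPM in control fibroblasts. Both KD libraries lay far above both control libraries. The log2 change was 5.02 ± 0.20 SE (adjusted p = 3.3e-05), and it stayed between 3.57 and 5.31 in 13 alternative fits, all of them called. At a common depth of 2000 UMIs per cell, 20.1% of KD replicate 1 fibroblasts (95% exact binomial interval 19.2 to 21.1) and 21.1% of KD replicate 2 fibroblasts (20.01 to 22.3) held an Mmp9 UMI, against 0.915% (0.747 to 1.11) and 1.15% (0.960 to 1.37) of control fibroblasts. The intervals cover counting error only; the exact permutation test over libraries gave p = 0.333, the smallest that 2 libraries against 2 allow. Without thinning the shares averaged 33.2% in KD and 1.91% in control. Mmp9 was unevenly spread among the cells that held it: the median was 1 and 2 UMIs per positive cell in the KD libraries, and the highest cell held 159 and 153 UMIs, against 11 and 37 in the control libraries.

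**Figure D2:**
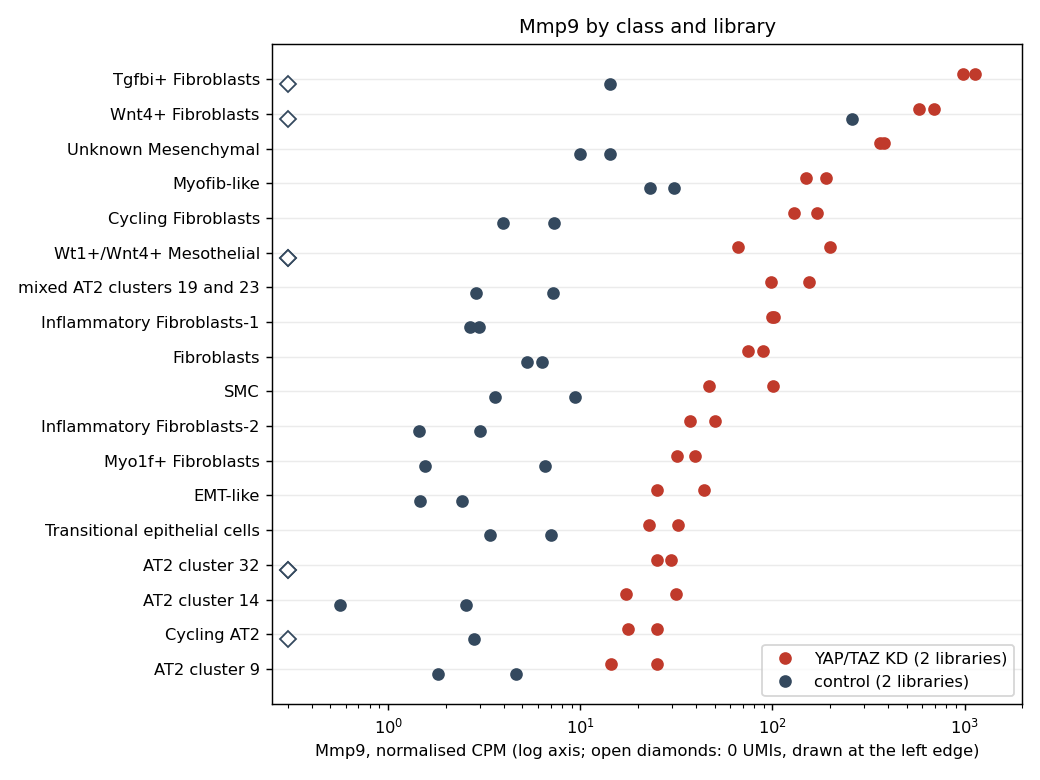
Mmp9 in normalised CPM on a log axis, by deposited class and library, classes ordered by their KD mean. Every KD library lies above every control library in each of the 18 rows, and the Tgfbi+ and Wnt4+ rows lead, although their control values rest on 5 to 38 cells.

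Mmp9 was called higher in all 12 classes that had at least 50 cells in every library. The log2 changes ran from 2.66 in Myofib-like cells to 5.13 in Inflammatory Fibroblasts-1 over the 8 fibroblast classes. The share of all genes called higher was 3.81% in Fibroblasts, 3.39% in Myofib-like, 3.02% in EMT-like, 1.4% in Inflammatory Fibroblasts-2, 1.28% in Myo1f+ Fibroblasts, 1.15% each in Cycling Fibroblasts and Inflammatory Fibroblasts-1, and 0.593% in Unknown Mesenchymal cells. In the broad Fibroblasts class the levels were 88.9 and 74.2 CPM in KD against 5.29 and 6.34 CPM in control. Different clusters held most of this class in the groups: cluster 5 held 1393 and 1149 cells in KD against 7 and 76 in control, and cluster 0 held 66 and 23 against 2412 and 2035. In CPM of raw counts, Mmp9 read 104 and 87.3 CPM in KD against 0 and 3.41 CPM in control in cluster 5, and 11.4 and 11.2 CPM, on 4 and 2 UMIs, against 2.37 and 1.36 CPM in cluster 0. The KD libraries lay above the control libraries in each of the 5 clusters of the class, so the class sum mixes clusters whose levels differ. Inflammatory Fibroblasts-1 read 101 and 100.04 CPM in KD against 2.67 and 2.98 CPM in control, and EMT-like cells 44.3 and 25.1 CPM against 2.42 and 1.47 CPM. In none of the 12 did the groups overlap. The call was lost in Cycling Fibroblasts without KD replicate 2 (log2 change 4.51, adjusted p = 0.23) and in Myo1f+ Fibroblasts without KD replicate 1 (2.86, adjusted p = 0.079). The size of the effect differed between the 8 fibroblast classes (edgeR F test of class by condition, library as a block, adjusted p = 2.6e-07), beside 7.96% of 14888 genes with such a difference.

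The highest Mmp9 levels were in 3 classes that were mostly KD cells. Tgfbi+ Fibroblasts (931 and 404 cells in KD, 5 and 38 in control) read 984 and 1138 CPM in KD. Their control cells held 0 UMIs in replicate 1 and 2 UMIs, or 14.3 CPM, in replicate 2. Wnt4+ Fibroblasts (1362 and 971 cells in KD, 7 and 32 in control) read 579 and 691 CPM in KD, and the 32 cells of control replicate 2 held 23 UMIs, or 258 CPM. Unknown Mesenchymal cells read 364 and 379 CPM in KD against 14.3 and 9.91 CPM in control, where each library gave 3 UMIs. Together these 3 classes held 65.3% and 71.6% of all Mmp9 UMIs in 25.9% and 26.7% of the cells of the KD libraries, against 0.783% and 5.05% of the UMIs in 0.647% and 1.27% of the cells of the control libraries. With them left out, an alternative chosen after seeing the data, the fibroblast change was 3.57 on the log2 scale and was still called. With each of the 8 tested fibroblast classes given the same weight it was 4.01. Tgfbi+ Fibroblasts, Wnt4+ Fibroblasts and smooth muscle cells, which had too few cells in some libraries to be tested, are not among the 8, while Unknown Mesenchymal cells are.

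Within Myofib-like cells, the class of highest Mmp9 among the tested control classes, the authors' clusters 4 and 15 differed. Cluster 15 read 519 and 397 CPM in KD against 40.8 and 61.6 CPM in control, and cluster 4 read 109 and 125 CPM against 5.22 and 6.09 CPM (CPM of raw counts). Cluster 15 held 99 and 39 of the Myofib-like cells in KD against 703 and 594 in control, so the class sum mixes the clusters in different shares.

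Neutrophils and macrophages are known sources of Mmp9, and their markers were read in the same fibroblast cells. The 10 neutrophil markers summed to 6.01 and 6.04 CPM in KD against 3.08 and 2.78 CPM in control; 4 were tested and 1, Camp, rose. S100a9 was at 0 UMIs in all 4 libraries, and S100a8 had 19 and 15 UMIs in KD against 12 and 8 in control. The 11 macrophage markers summed to 31.0 and 21.4 CPM in KD against 11.2 and 8.53 CPM in control, and 5 of 9 tested rose. Fibroblast cells with any UMI of Ptprc, Tyrobp, Csf3r or S100a8 were 2.48% and 2.65% of KD and 0.639% and 0.592% of control cells. They held 289 of 9545 and 114 of 7903 Mmp9 UMIs in KD, against 1 of 336 and 2 of 473 in control. Without these cells Mmp9 read 235 and 240 CPM in KD against 6.24 and 8.66 CPM in control (CPM of raw counts). Of the macrophage markers only Ptprc and Tyrobp were used to pick these cells. Others, such as C1qa (251 and 81 UMIs in KD fibroblasts against 31 and 9 in control), were not used, so cells with only those markers stayed in. The part of the macrophage markers in the result was not tested beyond this.

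The epithelial compartment also gave more Mmp9: 28.4 and 19.3 CPM in KD against 2.58 and 3.75 CPM in control, on 461 and 182 UMIs against 28 and 32. Here 3 of 9 members were called (Mmp9 higher, Mmp8 and Timp1 lower), beside 1.44% of 13952 genes (0.681% higher and 0.76% lower). The 6 basal cell markers, such as Krt5, summed to 0.986 and 2.12 CPM in KD against 36.9 and 28.3 CPM in control epithelium (5 of 5 tested fell). The 11 macrophage markers summed to 28.6 and 22.9 CPM in KD against 11.9 and 8.68 CPM in control epithelium, and 4 of 7 tested rose (median log2 change 3.71), while Marco was at 0 UMIs in all 4 libraries. The part of either list in these results was not tested. The log2 change of Mmp9 was 2.94 ± 0.27 SE (adjusted p = 3.8e-05), and it was called higher in AT2 cluster 9 (2.71), AT2 cluster 14 (3.91), Cycling AT2 (3.89) and Transitional epithelial cells (2.47). There 0.447%, 0.265%, 0.376% and 0.205% of genes rose, in that order. In the control libraries these classes held few Mmp9 UMIs: 4 and 10, 5 and 1, 4 and 0, and 15 and 21, in the same order. When 1 library was left out, the Cycling AT2 change ran from 2.97 to 8.67. The effect was smaller in epithelium than in fibroblasts: the difference of the log2 changes, fibroblast minus epithelial, was 2.07 ± 0.26 SE (adjusted p = 0.0020), and Mmp9 was the only member called for it, beside 3.55% of 17188 genes.

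Free RNA from lysed fibroblasts is a known source of UMIs in other cells, and 10 fibroblast markers were read in epithelial cells for comparison. Their epithelial level as a percent of their fibroblast level ran from 5.63% to 19.9% in KD replicate 1 (median 8.51%) and from 3.39% to 18.5% in KD replicate 2 (median 5.70%). In control the range was 7.19% to 25.1% in replicate 1 (median 12.3%) and 5.73% to 26.5% in replicate 2 (median 8.73%). Epithelial Mmp9 stood at 11.7% and 8.26% of the fibroblast level in KD, above the markers' median and inside their range. In control it stood at 42.8% and 43.4%, above all 10 markers, on 28 and 32 UMIs. In Transitional epithelial cells Mmp9 stood at 13.2% and 9.68% in KD. Its control values there were 56.6% and 81.4%, and the highest marker stood at 26.2% and 17.5%. The other tested epithelial classes, on few control UMIs, were mixed. In control, Mmp9 stood at 30.2% and 53.8% in AT2 cluster 9, 42.4% and 6.52% in AT2 cluster 14, and 46.5% and 0% in Cycling AT2. It exceeded the highest marker only in replicate 2 for AT2 cluster 9, and only in replicate 1 for AT2 cluster 14 and Cycling AT2. Which part of these UMIs was free RNA and which epithelial transcript was not tested. Over the whole epithelial compartment the highest marker was Tcf21 in 3 of the 4 libraries, on 13 to 22 UMIs. The share of epithelial cells with an Mmp9 UMI at 2000 UMIs was 4.71% (3.92 to 5.61) and 4.21% (3.17 to 5.47) in KD against 0.387% (0.167 to 0.761) and 0.606% (0.291 to 1.11) in control; the median depth of these cells was 5391 and 6137.5 UMIs in KD against 3985 and 4208 UMIs in control epithelium, and 4786.5 and 5865 UMIs against 3938 and 4160.5 UMIs in fibroblasts. In AT2 cluster 9 the share was 4.91% (3.58 to 6.56) and 4.04% (1.86 to 7.52) in KD against 0.222% (0.00561 to 1.23) and 0.866% (0.236 to 2.20) in control.

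**Figure D3:**
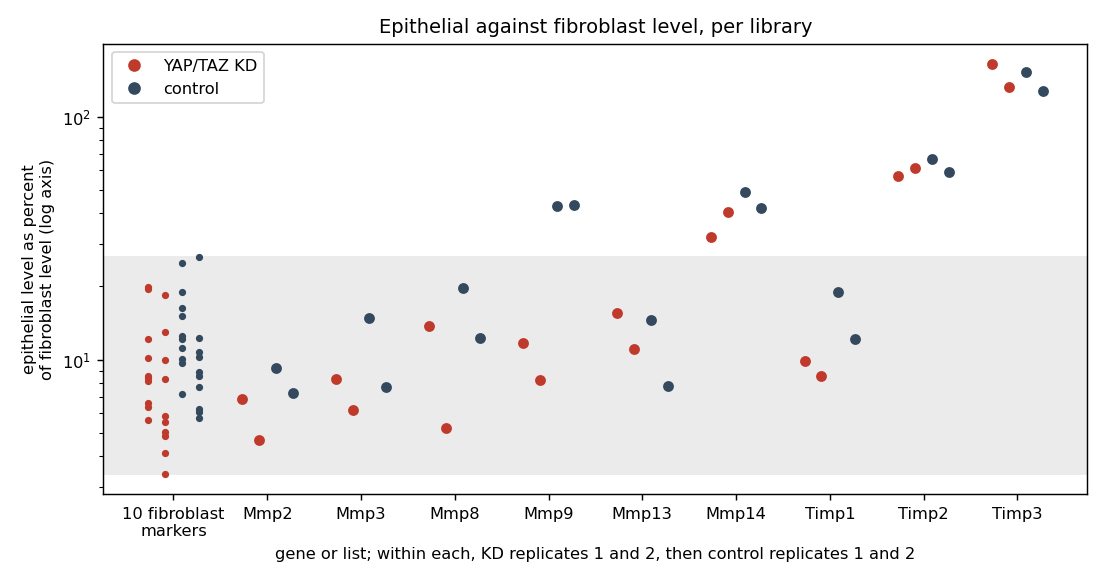
Level in epithelial cells as a percent of the level in fibroblasts of the same library, on a log axis, for 10 fibroblast markers (small dots, left; their whole range shaded) and the 9 genes. Mmp2, Mmp3, Mmp8, Mmp13 and Timp1 lie in the shaded range in all 4 libraries and Mmp9 in the KD libraries, while Mmp14, Timp2 and Timp3 lie above it.

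By the same measure Mmp2, Mmp3, Mmp8, Mmp13 and Timp1 stood inside the range of the fibroblast markers in every library, at 4.68% to 19.6% of their fibroblast level. Mmp14 at 31.9% and 40.6% in KD against 48.7% and 42.1% in control, Timp2 at 57.1% and 61.2% against 66.9% and 59.2%, and Timp3 at 164% and 132% against 152% and 127% stood above all 10 markers. These 3 genes are the members whose epithelial levels exceeded the marker range in all 4 libraries.

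Mmp2 (chr8:92827291-92853420, plus strand), the gelatinase A gene, read 556 and 474 CPM in KD fibroblasts against 357 and 504 CPM in control fibroblasts. The groups overlapped, and the change did not pass (0.26 ± 0.19 SE, adjusted p = 0.41). Its log2 changes were positive in 8 of 8 fibroblast classes, from 0.00 to 0.54, and 0 of 12 classes were called by edgeR or DESeq2 (4 at an unadjusted p under 0.05). The highest levels among the tested classes were in Inflammatory Fibroblasts-2 (1014 and 835 CPM in KD against 570 and 697 CPM in control) and in Myofib-like cells (1003 and 859 CPM against 560 and 783 CPM). Both classes overlapped each other in KD and in control.

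The collagenase Mmp8, the stromelysin Mmp3 and the collagenase Mmp13 lie in a cluster of MMP genes on chromosome 9, which is also the chromosome of Yap1; 364 kb separate the end of Mmp8 from Yap1. In GRCm38, Mmp13 is at chr9:7272514-7283331, Mmp3 at chr9:7445822-7455975 and Mmp8 at chr9:7558456-7568485, all on the plus strand, and Yap1 at chr9:7931999-8004596 on the minus strand. The 250 bases before the RefSeq start of these genes (GRCm38.p6, plus strand) are shown because the genes are neighbours whose transcripts did not change alike; capitals mark TGANTCA, the recognition motif of AP-1, the Fos and Jun factors known to drive MMP promoters. The lines are Mmp13 at chr9:7272264-7272513, Mmp3 at chr9:7445572-7445821 and Mmp8 at chr9:7558179-7558428.
Mmp13: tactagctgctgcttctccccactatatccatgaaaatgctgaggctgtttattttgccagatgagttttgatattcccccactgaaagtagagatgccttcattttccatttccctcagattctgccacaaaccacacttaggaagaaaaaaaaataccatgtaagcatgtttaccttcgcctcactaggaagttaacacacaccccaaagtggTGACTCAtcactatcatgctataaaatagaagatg
Mmp3: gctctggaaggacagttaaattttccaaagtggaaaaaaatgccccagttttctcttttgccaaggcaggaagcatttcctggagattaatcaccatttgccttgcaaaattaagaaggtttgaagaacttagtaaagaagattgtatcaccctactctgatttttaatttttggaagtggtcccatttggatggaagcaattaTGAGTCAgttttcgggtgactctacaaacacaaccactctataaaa
Mmp8: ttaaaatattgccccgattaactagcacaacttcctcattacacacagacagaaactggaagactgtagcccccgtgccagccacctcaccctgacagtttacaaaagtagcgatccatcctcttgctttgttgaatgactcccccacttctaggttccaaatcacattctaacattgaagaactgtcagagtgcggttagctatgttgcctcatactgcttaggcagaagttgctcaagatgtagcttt
Mmp13 and Mmp3 each held 1 match, starting 35 and 46 bases before the start, and Mmp8 held none. The motif reads the same on both strands, and 6.75% of 32851 promoters held it in the same 250 bases. Of the 7 members with a promoter entry (there was none for Mmp2 and Mmp9), 2 held it. The TEAD motif GGAATG, through which YAP and TAZ are known to act, was searched on both strands and was found in 1 of 7, Timp1, beside 12.6% of all promoters. A match is only a match of letters.

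Mmp8, known as the neutrophil collagenase, read 7.64 and 12.2 CPM in KD fibroblasts against 29.5 and 38.1 CPM in control fibroblasts, without overlap. The log2 change was −1.78 ± 0.22 SE (adjusted p = 0.0040) and was called in 13 of 13 alternative fits. Fibroblasts with an Mmp8 UMI at 2000 UMIs made up 1.11% and 1.40% in KD against 4.71% and 5.57% in control. Its log2 change was negative in 8 of 8 fibroblast classes and was called in 4 of them: Fibroblasts (−1.91, adjusted p = 0.00011), Myofib-like (−2.76, adjusted p = 0.00074), EMT-like (−1.44, adjusted p = 0.0022) and Cycling Fibroblasts (−1.21, adjusted p = 0.015), where 4.42%, 3.95%, 3.22% and 1.16% of genes fell, in that order. The call in Cycling Fibroblasts was lost without KD replicate 1 (−0.75, adjusted p = 0.51) and without KD replicate 2 (−1.88, adjusted p = 0.74). The highest control levels were in Fibroblasts (12.5 and 18.6 CPM in KD against 52.2 and 64.0 CPM in control), Myo1f+ Fibroblasts (17.0 and 19.9 CPM against 26.1 and 86.8 CPM) and Cycling Fibroblasts (12.7 and 27.2 CPM against 39.6 and 53.5 CPM). These 3 classes overlapped each other in both groups. The Fibroblasts value joins clusters present in different shares, as given for Mmp9. In CPM of raw counts, Mmp8 overlapped between the groups in cluster 0, the main cluster in control (39.9 and 129 CPM in KD, on 14 and 23 UMIs, against 64.4 and 90.2 CPM in control). It also overlapped in cluster 5, the main one in KD (12.7 and 18.8 CPM in KD against 0 and 23.8 CPM in control, on 0 and 7 UMIs). In clusters 8, 11 and 18 of the class it was lower in KD without overlap, with 0 UMIs in the 48 and 11 KD cells of cluster 18, and the part of the cluster mix in the class value was not tested. In epithelium Mmp8 rested on 17 and 6 UMIs in KD against 63 and 40 in control (−2.56 ± 0.37, adjusted p = 0.0017), at levels inside the range of the fibroblast markers.

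Mmp13, known as collagenase 3, read 10.3 and 11.5 CPM in KD fibroblasts against 20.9 and 25.6 CPM in control fibroblasts, without overlap (−1.10 ± 0.14 SE, adjusted p = 0.0042, called in 13 of 13 alternative fits). The fall was called in 1 of the 6 fibroblast classes tested. In Myofib-like cells Mmp13 read 17.6 and 30.0 CPM in KD against 91.6 and 109 CPM in control (−2.08 ± 0.20, adjusted p = 5.6e-06), beside 3.95% of genes that fell in that class. Cluster 4 of this class showed the difference, with 17.6 and 32.5 CPM in KD against 182 and 182 CPM in control (CPM of raw counts). Cluster 15 read 12.6 and 3.85 CPM in KD, on only 7 and 1 UMIs, against 12.3 and 21.4 CPM in control. Its groups overlapped, and so few UMIs cannot show whether Mmp13 changed there. In Inflammatory Fibroblasts-2 Mmp13 read 57.7 and 16.0 CPM in KD against 17.1 and 17.4 CPM in control, overlapping and not called (1.15, adjusted p = 0.054). All 76 Mmp13 UMIs of KD replicate 1 in that class lay in the 23 cells of its cluster 29. Cluster 29 read 305 and 55.4 CPM in KD against 66.3 and 66.2 CPM in control. Cluster 10 of the class read 0 and 2.60 CPM against 7.41 and 4.00 CPM (CPM of raw counts). The effect differed between the 8 classes (adjusted p = 1.5e-07). In control, Myofib-like cells had the highest Mmp13 level of the classes with at least 50 cells per library, and the next, Inflammatory Fibroblasts-1, read 26.7 and 25.4 CPM. In KD that order was not kept: Inflammatory Fibroblasts-2, Inflammatory Fibroblasts-1 and Myofib-like cells overlapped.

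Mmp3, stromelysin 1, read 367 and 342 CPM in KD fibroblasts against 305 and 414 CPM in control fibroblasts, and the KD values lay between the control values (−0.02 ± 0.17 SE, adjusted p = 0.95). The classes went different ways, with 0 of 12 called by edgeR, 1 by DESeq2 and 7 at an unadjusted p under 0.05: 0.83 in Inflammatory Fibroblasts-1 (1059 and 653 CPM in KD against 415 and 550 CPM in control, adjusted p = 0.064), 0.60 in EMT-like cells (998 and 865 CPM against 523 and 707 CPM, adjusted p = 0.081) and −0.65 in Inflammatory Fibroblasts-2 (252 and 330 CPM against 377 and 535 CPM, adjusted p = 0.12). The difference between classes passed (adjusted p = 6.3e-07). The share of fibroblasts with an Mmp3 UMI at 2000 UMIs averaged 20.4% in KD and 26.5% in control (exact permutation p = 0.333). In epithelium Mmp3 did not pass in all 4 libraries (−0.57, adjusted p = 0.28) but passed without KD replicate 1 (−0.87, adjusted p = 0.0033) and without control replicate 2 (−0.81, adjusted p = 0.014).

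The MMP cluster holds 9 genes within 1 Mb of Yap1, of which 6 could be tested in fibroblasts. Of these, 4 fell and 0 rose, beside 6.22% and 4.42% of all genes: Mmp8, Mmp13, the stromelysin Mmp10 (21.6 and 32.3 CPM in KD against 41.0 and 56.2 CPM in control, −0.85, adjusted p = 0.042) and Mmp27 (0.840 and 0.770 CPM against 1.59 and 1.497 CPM, −0.94, adjusted p = 0.041). The call of Mmp10 was lost without KD replicate 1 (−0.60, adjusted p = 0.12). The call of Mmp27 was lost without KD replicate 1 (adjusted p = 0.10), KD replicate 2 (adjusted p = 0.17) or control replicate 1 (adjusted p = 0.075). Mmp12, the macrophage elastase, read 3.90 and 0.7996 CPM in KD against 0.520 and 0.694 CPM in control and did not pass (1.97 ± 0.62, adjusted p = 0.084). Mmp1b, Mmp20 and Mmp7 were below the filter, and Mmp7 had 0 UMIs in fibroblasts of every library. Of the other 10 protein-coding genes in the window, 9 were tested and 0 passed by edgeR, DESeq2 or voom (2 at an unadjusted p under 0.05), and their log2 changes lay between −0.40 and 0.23; Birc3, which lies between the cluster and Yap1, read 54.7 and 48.6 CPM in KD against 61.3 and 56.8 CPM in control.

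**Figure D4:**
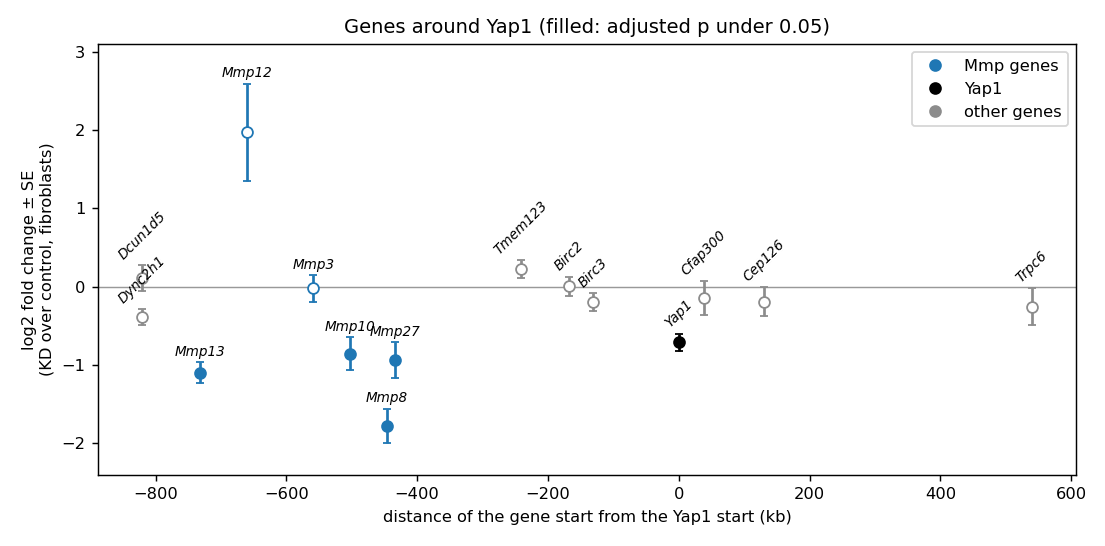
Log2 change in fibroblasts, KD over control, with its SE, against the distance in kb of each gene's start from the Yap1 start, for tested protein-coding genes; filled symbols passed an adjusted p under 0.05. Mmp13, Mmp10, Mmp8 and Mmp27 fell, Mmp3 in their midst read −0.02, and the genes between the cluster and Yap1 (Tmem123, Birc2 and Birc3) did not pass.

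Mmp14 (chr14:54431612-54445364, plus strand), the membrane-type MMP, read 991 and 1068 CPM in KD fibroblasts against 816 and 945 CPM in control fibroblasts (0.23 ± 0.16 SE, adjusted p = 0.39). It was called in 0 of 12 classes by edgeR and by DESeq2 (1 at an unadjusted p under 0.05), with changes between −0.44 and 0.22. Myofib-like cells read 1542 and 1724 CPM in KD against 1415 and 1569 CPM in control, and in KD they overlapped Tgfbi+ Fibroblasts with 1612 and 1830 CPM. In epithelium the level was 316 and 433 CPM in KD against 397 and 398 CPM in control, and it varied by class: Transitional epithelial cells read 585 and 711 CPM against 605 and 639 CPM, AT2 cluster 14 506 and 479 CPM against 457 and 484 CPM, and AT2 cluster 9 127 and 87.4 CPM against 123 and 125 CPM. In AT2 cluster 9 that is 12.8% and 8.19% of the fibroblast level in KD and 15.1% and 13.2% in control, inside the range of the fibroblast markers.

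Timp1 (chrX:20870166-20874735, plus strand), the inhibitor known to bind the Mmp9 proform, read 1307 and 1458 CPM in KD fibroblasts against 1538 and 2303 CPM in control fibroblasts. The groups did not overlap, yet the control libraries were far apart and the change did not pass (−0.47 ± 0.22 SE, adjusted p = 0.20). It passed without control replicate 1 (−0.74, adjusted p = 0.00066). It was called in 0 of 8 fibroblast classes by edgeR or DESeq2 (0 at an unadjusted p under 0.05), where its changes ran from −0.41 in Myofib-like cells to 0.31 in Inflammatory Fibroblasts-1, and the effect differed between classes (adjusted p = 0.00085). In epithelium Timp1 fell: 129 and 125 CPM in KD against 291 and 281 CPM in control (−1.17 ± 0.18, adjusted p = 0.0027). It was called lower in all 4 epithelial classes tested, by 1.05 to 1.29 on the log2 scale, where 0.475% (AT2 cluster 9), 0.246% (AT2 cluster 14), 0.96% (Cycling AT2) and 0.0986% (Transitional epithelial cells) of genes fell. The call was lost in AT2 cluster 14 without KD replicate 2 (adjusted p = 0.36) or control replicate 1 (adjusted p = 0.061) and in Transitional epithelial cells without control replicate 1 (adjusted p = 0.071). These epithelial levels were 9.90% and 8.59% of the fibroblast level in KD and 18.9% and 12.2% in control, inside the range of the fibroblast markers. The 10 fibroblast markers themselves had a median change of −0.61 in epithelium, with −1.06 as the lowest, that of Col1a2, the 1 marker that fell (adjusted p = 0.035). The Timp1 change of −1.17 lay below all 10 and was called in 14 of 14 alternative fits. These epithelial changes do not allow for each gene's own change in fibroblasts, which was −0.47 for Timp1. The part of free RNA in the epithelial Timp1 change was not tested. Fibroblast and epithelial effects on Timp1 were not separated by the interaction test (0.68 ± 0.17, adjusted p = 0.052); it passed without control replicate 2 (0.99, adjusted p = 0.0023) and in 4 other of 11 alternative fits.

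Timp2 (chr11:118301069-118355740, minus strand), the partner of Mmp14 in Mmp2 activation, read 386 and 443 CPM in KD fibroblasts against 279 and 358 CPM in control fibroblasts, without overlap (0.38 ± 0.17 SE, adjusted p = 0.18). It passed without control replicate 2 (0.57, adjusted p = 0.036). The change was positive in all 12 classes tested, between 0.17 and 0.56, and 0 were called by edgeR or DESeq2 (5 at an unadjusted p under 0.05). Among the tested fibroblast classes, Inflammatory Fibroblasts-1 had the highest KD mean (467 and 614 CPM in KD against 346 and 424 CPM in control) and Myo1f+ Fibroblasts the lowest (323 and 344 CPM against 262 and 333 CPM). In epithelium Timp2 read 220 and 271 CPM in KD against 187 and 212 CPM in control (0.30 ± 0.19, adjusted p = 0.56).

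Timp3 (chr10:86300372-86349506, plus strand), the inhibitor that stays bound to matrix and also blocks ADAM17, read 166 and 159 CPM in KD fibroblasts against 183 and 205 CPM in control fibroblasts (−0.25 ± 0.12 SE, adjusted p = 0.23). That small change stood beside larger ones within classes. In Myofib-like cells Timp3 read 209 and 191 CPM in KD against 592 and 639 CPM in control (−1.62 ± 0.18, adjusted p = 1.7e-05). Within that class, cluster 15 read 337 and 597 CPM in KD against 954 and 1095 CPM in control (CPM of raw counts). Cluster 4 read 169 and 151 CPM against 233 and 279 CPM, so both clusters were lower in KD without overlap. Cluster 15 held 99 and 39 of the Myofib-like cells in KD against 703 and 594 in control, so the class value also mixes the clusters in different shares. The part of that mix in the class value was not tested. Timp3 also fell in Myo1f+ Fibroblasts (47.2 and 61.7 CPM against 151 and 104 CPM, −1.24, adjusted p = 0.0031, beside 1.2% of genes that fell there) and in EMT-like cells (61.8 and 55.5 CPM against 100.3 and 83.0 CPM, −0.64, adjusted p = 0.018). In Myo1f+ Fibroblasts the call was lost without control replicate 1 (−0.96, adjusted p = 0.070), and in EMT-like cells without KD replicate 2 (−0.57, adjusted p = 0.16) or control replicate 1 (−0.49, adjusted p = 0.13). In Inflammatory Fibroblasts-2 it read 227 and 205 CPM in KD against 151 and 143 CPM in control, without overlap and not called (0.56, adjusted p = 0.12). The effect differed between the 8 fibroblast classes (adjusted p = 1.6e-11).

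Which classes made up the fibroblasts differed beside these values. Tgfbi+ Fibroblasts, nearly all KD cells, read 563 and 678 CPM of Timp3 in KD, and smooth muscle cells (48 and 5 cells in KD, 724 and 753 in control) read 422 and 468 CPM in control. Without the Tgfbi+, Wnt4+ and Unknown Mesenchymal classes, an alternative chosen after seeing the data, the fibroblast change of Timp3 was −0.87 (adjusted p = 0.0069). In epithelium Timp3 read 272 and 211 CPM in KD against 279 and 260 CPM in control (−0.16 ± 0.19, adjusted p = 0.77). AT2 cluster 14 was the highest epithelial group in both conditions, with 462 and 376 CPM in KD against 392.3 and 371 CPM in control, above AT2 cluster 9 with 253 and 199 CPM against 312 and 257 CPM. AT2 markers in the fibroblast sums stood at 4.83% and 3.48% of their epithelial level in KD and at 3.32% and 2.26% in control.

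**Figure D5:**
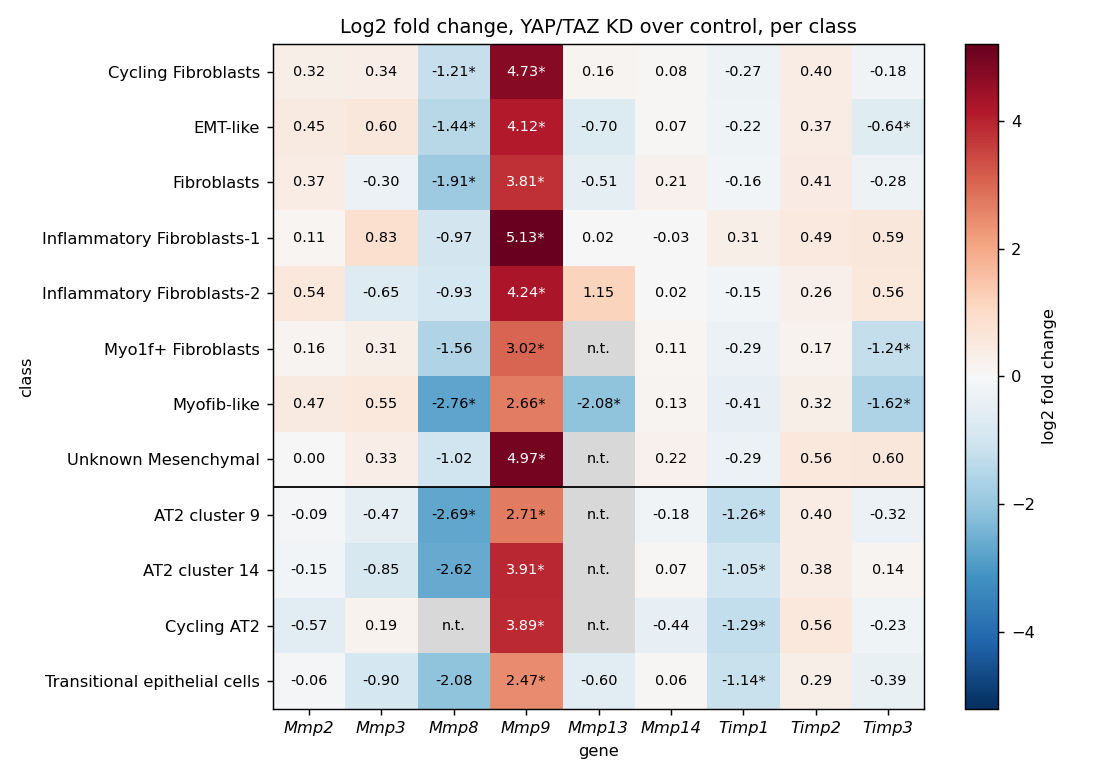
Log2 change, KD over control, of the 9 genes in the 12 classes with at least 50 cells in every library (8 fibroblast classes above the line, 4 epithelial below); a star marks an adjusted p under 0.05 and grey an untested pair. Mmp9 is starred in all 12 classes, Timp1 in the 4 epithelial classes, Mmp8 in 5, Timp3 in 3 and Mmp13 in 1.

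Over all classes, 25 of 102 tests of a member in a class were called (24.5%), 12 higher and 13 lower, beside 3.28% of the 136692 tests of all genes (1.55% higher and 1.73% lower). The 12 higher calls were those of Mmp9. The remaining lower call was Mmp8 in AT2 cluster 9, on 5 and 1 UMIs in KD against 12 and 13 in control (−2.69, adjusted p = 0.016), which was lost without any of the 4 libraries (adjusted p = 0.12 without KD replicate 1, 0.16 without KD replicate 2, 0.74 without control replicate 1 and 0.71 without control replicate 2).

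Set against the inhibitors in the same cells, fibroblasts held 131 and 114 Mmp9 UMIs per 1000 UMIs of Timp1, Timp2 and Timp3 together in KD, against 3.01 and 3.01 in control. The same ratio was 4.11 and 5.90 against 14.8 and 13.3 for Mmp8, 5.55 and 5.57 against 10.5 and 8.94 for Mmp13, and 299 and 230 against 178 and 176 for Mmp2. For Mmp14 it was 533 and 518 in KD against 408 and 330 in control. For Mmp3 it was 198 and 166 in KD against 153 and 144 in control. Most of the inhibitor UMIs were those of Timp1, which read lower in KD fibroblasts without being called. By their own levels, Mmp2, Mmp3 and Mmp14 were not called either. The same ratio was not computed for other genes, so no share of all genes stands beside these values. The ratios are of UMIs and do not allow for the lengths of the transcripts.

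Across 48 sums, the 4 libraries in the 12 tested classes, the genes most like each member by Pearson correlation of log2(CPM + 1) were found among 11149 genes with a mean of at least 5 CPM. The sums share libraries, depth and the fibroblast-epithelial divide, so these are descriptions. Mmp2 was most like Ctsk (r = 0.98), Lrp1 and Enox1, Mmp3 like Thy1 (r = 0.95), Nsg1 and Olfr1033, and Timp1 like Mfap5 (r = 0.98), Ptgis and Aebp1. Mmp14 was most like Dync1h1 (r = 0.94), Rhoc and Pxdn, and Timp2 like Pttg1ip (r = 0.91), Rhoc and Serinc1. Mmp8 was most like Des (r = 0.91), Gyg and Vgll3, Mmp9 like Tmem165 (r = 0.84), Hspb1 and Pcp4, Mmp13 like Col5a3 (r = 0.82), 8030451A03Rik and Akr1c18, and Timp3 like Wls (r = 0.81), Hbegf and Tbc1d8.

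Of 16 further MMP genes in the table, 11 were tested in fibroblasts: 2 rose and 4 fell, beside 4.42% and 6.22% of all genes (median log2 change −0.44, against 0.01 over all genes). Besides Mmp10 and Mmp27, Mmp17 fell (1.30 and 1.66 CPM in KD against 2.53 and 2.85 CPM in control, −0.87, adjusted p = 0.038), as did Mmp23 (47.0 and 41.8 CPM against 61.6 and 79.9 CPM, −0.67, adjusted p = 0.027). Mmp28 rose (5.32 and 5.27 CPM against 2.85 and 3.27 CPM, 0.79, adjusted p = 0.019). Mmp17 and Mmp28 lost their calls without KD replicate 1 (adjusted p = 0.14 and 0.052) and Mmp23 without KD replicate 2 (adjusted p = 0.12). The other inhibitors Timp4, Reck, A2m and Pzp gave 0 calls of 4 tested by edgeR, with 0 at an unadjusted p under 0.05 and 0 by DESeq2 or voom.

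Among the related ADAM and ADAMTS proteases, 6 of 25 tested fell in KD fibroblasts and 0 rose (median −0.05), beside 6.22% of all genes that fell and 4.42% that rose. Adam33 read 1.25 and 0.918 CPM in KD against 7.10 and 6.35 CPM in control (−2.62 ± 0.20 SE, adjusted p = 0.00068). Adam12 read 29.4 and 26.7 CPM against 88.7 and 76.2 CPM (−1.56 ± 0.12, adjusted p = 0.00078). Both were called without any 1 library. Adamts17 (−0.90, adjusted p = 0.031) lost its call without KD replicate 2 (adjusted p = 0.12) and Adamts5, an aggrecanase (−0.58, adjusted p = 0.027), without KD replicate 1 (adjusted p = 0.14). Adamts9 (−0.55, adjusted p = 0.043) lost its call without KD replicate 1 (adjusted p = 0.096), KD replicate 2 (adjusted p = 0.28) or control replicate 1 (adjusted p = 0.065).

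Of the plasminogen system, which activates MMP proforms, 2 of 7 tested rose and 1 fell, beside 4.42% and 6.22% of all genes. Serpine2, a protease inhibitor, rose (1006 and 1150 CPM in KD against 533 and 719 CPM in control, 0.78, adjusted p = 0.038). Plaur, the urokinase receptor, also rose (0.46, adjusted p = 0.047). Serpine2 lost its call without KD replicate 1 (adjusted p = 0.064) or KD replicate 2 (adjusted p = 0.16). Plaur lost its call without KD replicate 1 (adjusted p = 0.069), KD replicate 2 (adjusted p = 0.29) or control replicate 1 (adjusted p = 0.093). Of the 11 tested MMP activators and partners, such as Cd44 and Lrp1, and the 6 cathepsin genes, 0 were called; at an unadjusted p under 0.05 there were 4 and 3, DESeq2 called 1 and 2, and voom called 0 of both.

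Of 14 transcription factors known to act on MMP genes (AP-1, ETS, NF-kB and C/EBP members), 2 rose and 1 fell in KD fibroblasts, beside 4.42% and 6.22% of all genes. Cebpb read 280 and 604 CPM in KD against 81.6 and 59.97 CPM in control (2.64 ± 0.34 SE, adjusted p = 0.0046), Jund 245 and 235 CPM against 144 and 139 CPM (0.77 ± 0.12, adjusted p = 0.0091), and both were called without any 1 library. Fosl1 fell (−0.46, adjusted p = 0.035), but lost its call without KD replicate 1 (adjusted p = 0.13), KD replicate 2 (adjusted p = 0.17) or control replicate 1 (adjusted p = 0.067). Of 9 tested genes of cytokine pathways that induce MMPs, 2 fell and 0 rose, beside the same shares of all genes. Il1rn, the interleukin-1 antagonist and so not itself an inducer, fell (2.93 and 2.90 CPM in KD against 6.77 and 7.67 CPM in control, −1.31, adjusted p = 0.0030). So did Il6 (48.8 and 50.5 CPM against 70.9 and 86.9 CPM, −0.67, adjusted p = 0.016). Il6 lost its call without KD replicate 1 (adjusted p = 0.066) or KD replicate 2 (adjusted p = 0.058).

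In the epithelial sums, Mmp10 fell (2.59 and 2.12 CPM in KD against 12.8 and 7.04 CPM in control, −2.06, adjusted p = 0.0029). Cebpb rose (86.7 and 182 CPM against 25.9 and 17.8 CPM, 2.60, adjusted p = 0.00035), as did Plaur (70.8 and 87.3 CPM against 42.1 and 45.3 CPM, 0.85, adjusted p = 0.022). Plaur lost its call without control replicate 1 (adjusted p = 0.15). Of the 7 tested plasminogen genes 1 rose and 1 fell there, and of the 6 further MMP genes 0 rose and 1 fell, beside 0.681% of all genes higher and 0.76% lower.

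Several members overlap other genes, and the strand setting of the counting is unknown here. Timp1 lies inside Syn1 and Timp3 inside Syn3, both on the opposite strand, and Timp2 overlaps Cep295nl on the same strand. The overlapping genes were counted far less often in fibroblasts: Syn1 had 345 and 300 UMIs in KD against 683 and 646 in control, Syn3 165 and 169 against 249 and 291, and Cep295nl 46 and 35 against 67 and 80.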

How the data were processed

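RNA of single cells from a multiome kit was measured in 4 libraries, 2 KD and 2 control, of 1 batch per the labels. The deposited matrix holds raw UMI counts per gene and cell; no aligner, counter or strand setting is given in the sources used here, and the submitters' processing notes name GRCm38 and mm10. Cells had been filtered by the authors before deposit: the deposited mitochondrial percent per cell reaches no higher than 35 in the file. The deposited class, cluster and library of each cell were taken from the authors' cell table. The authors' doublet enrichment ratio, from the ATAC data, was used in 1 alternative only, and no doublet caller was run here. The cell table has 53 further columns of cell values that were not used.

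Counts were summed per library over fibroblast classes, over epithelial groups and over each class with at least 50 cells in every library. AT2 clusters 19 and 23, which mix epithelial and fibroblast markers (1832 cells), and 143 mesothelial cells were left out. Sums were tested with edgeR 4.0.16 in R 4.3.3 (quasi-likelihood test, TMM, default low-count filter, Benjamini-Hochberg over all genes tested, threshold 0.05), and CPM are TMM-normalised unless said to be of raw counts. The difference between compartments was an interaction with library as a block. The difference between 8 fibroblast classes was chosen after seeing the data. DESeq2 1.42.0, limma voom 3.58.1 and other settings were alternatives. Shares of cells were compared after thinning each cell to 2000 UMIs, which left out 252 and 45 KD and 896 and 626 control fibroblasts and 42 and 16 KD and 164 and 100 control epithelial cells. The fits were tested on simulated data. Named were the members, Yap1, Wwtr1, the chromosome 9 MMP genes, up to 5 called genes per list with the largest change, and the 3 most alike genes per member. Gene positions are from GENCODE M21 and promoters from RefSeq. The members and lists were chosen with earlier results of these data known. A called gene of these lists is not reported here.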

Additional observations from a re-analysis of the deposited data

Results flagged for a closer look

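The Mmp9 effect differed between the compartments: the fibroblast log2 change exceeded the epithelial one by 2.07 in the interaction test. The effect also differed between the 8 fibroblast classes, by the F test of class and condition, for Timp3 (edgeR adjusted p = 1.58e-11), Mmp13 (1.51e-07), Mmp9 (2.65e-07), Mmp3 (6.3e-07) and Timp1 (0.00085). Of all 14888 genes, 7.96% passed this test, which was chosen after seeing the data. The part that differing cluster shares within the classes have in it was not tested. In cells left out of the main fits, Mmp9 was also above control. The mixed AT2 clusters 19 and 23 averaged 126 CPM in KD (154 and 98.5 CPM), against 2.86 and 7.23 CPM in control. Mesothelial cells averaged 132 CPM in KD, on 31 and 6 UMIs, against 0 UMIs in both control libraries.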

How the results depend on the processing

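Mmp9, Mmp8 and Mmp13 in fibroblasts and Mmp9, Mmp8 and Timp1 in epithelium kept their direction and their call under every alternative fit run. Counts of genes called moved more. In fibroblasts 1860 genes were called, 998 to 3666 when 1 library was left out and 5820 with replicate number as a block. In epithelium 201 were called, 136 to 684 without 1 library, 344 without TMM, 528 without the low-count filter, 100 with thinned cells, 329 with the block, 780 with AT2 clusters 19 and 23 and 99 in AT2 cluster 9 alone. With those clusters 25.3% of calls were higher, against 47.3% in the reported fit. For the difference between compartments 610 were called, 249 to 975 without 1 library, 288 by DESeq2, 1303 without the filter and 403 thinned. Without KD replicate 1, 58.6% of these were more positive in fibroblasts, against 30.2%. Calls of a member in a class numbered 25, 25 to 36 without 1 library and 45 with the block. The block also brought fibroblast Timp1 (−0.45, adjusted p = 0.030), Timp2 (0.39, adjusted p = 0.013) and Wwtr1 (−0.37, adjusted p = 0.011) and epithelial Mmp3 (−0.58, adjusted p = 0.036) past the threshold; same-numbered libraries deviated together (r = 0.32 in fibroblasts and 0.17 in epithelium), but 2 pairs show only a shared number. Directions of uncalled values turned: fibroblast Mmp3 (−0.02) ran from −0.22 to 0.21 without 1 library and was 0.35 without the Tgfbi+, Wnt4+ and Unknown Mesenchymal classes. Epithelial Mmp14 ran from −0.35 to 0.13 and Mmp2 from −0.65 to 0.13. The compartment difference ran from −0.026 to 0.13 for Timp2, −0.24 to 0.13 for Timp3 and −0.84 to 0.066 for Mmp13, which was 0.058 with thinned cells. The share of fibroblasts with a Timp3 UMI differed by −0.29 percentage points thinned and by 4.07 unthinned. Where 1 library was left in a group, it was assumed to vary like the others. DESeq2 gave no adjusted p for Mmp9 in Myo1f+ Fibroblasts. The cause of these shifts was not tested. With 2 libraries a group, no share comparison could pass, and class sums under 20 UMIs limit Mmp8, Mmp13 and, in control, Mmp9 in epithelium.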
